A study of Cucumis melo with 6 samples.

Results

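Head-to-head gene pairs are neighbouring genes on opposite strands whose annotated starts face each other across a short stretch of DNA. In the melon (Cucumis melo) annotation used here, 473 such pairs, with 946 genes, had 1 to 1000 bp between the gene spans. They were taken from 28286 pairs of consecutive genes among 28299 genes, by position and strand alone: the left gene lies on the minus strand and the right gene on the plus strand. Their expression was compared between leaves of the double mutant lhp1ab and of the monoecious wild type (WT), and beside that of the 1390 tail-to-tail pairs at the same distance, in which the gene ends face each other.

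There were 3 libraries of lhp1ab and 3 of WT. Both genotypes belong to the CharMONO inbred line of a Charentais-type cantaloupe. The mutant additionally carries an EMS-induced mutation in each of 2 genes, G1970A in Cmlhp1a and C1930T in Cmlhp1b, with positions counted in genomic DNA from the ATG. Plants were grown in a glasshouse under long days of 16 h, at 27 °C by day, 21 °C by night and 60% relative humidity, and poly(A) RNA of fresh leaves was sequenced with a strand-specific kit. The series calls the replicates biological but does not say whether each came from its own plant or pool, and the p-values below therefore cover only the spread among these 6 samples. The files pair no gene with a name or product. The 2 mutated genes and leaf marker genes could therefore not be looked up, and no role of a single gene is given below.

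Neighbouring genes with facing starts can share the DNA between them as a bidirectional promoter, and transcription then leaves this stretch in both directions. In plants and animals many such pairs hold housekeeping genes, and partners are often, but not always, expressed together. LHP1 is a plant protein with a chromodomain that recognises H3K27me3, the histone mark that Polycomb complexes place on repressed genes. A shared start region is one place where a chromatin change could reach 2 genes, whereas tail-to-tail partners are equally close but have their starts apart. The distance is measured between annotated spans, since start sites were not mapped here.

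The pairs lay on all 12 chromosomes, between 29 pairs on chromosome 2 and 52 on chromosome 8. The distance between partners had a median of 574 bp, with quartiles of 303 and 786 bp, and 92 pairs were within 250 bp. In 103 pairs a span also overlapped another gene on either strand, and 161 members also belonged to a tail-to-tail pair within 1000 bp. Members were built of a median of 4 exons, against 5 in tail-to-tail members and 3 over all genes. Single-exon genes made up 20.8% of members, 16.3% of tail-to-tail members and 26.2% of all genes.

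Reads were counted by strand, so the partners of a pair were counted apart although their spans lie close together. Of the 946 members, 679 (71.8%) passed the filter on low counts and were tested, against 85.1% of tail-to-tail members and 63.6% of all genes. Both partners were tested in 277 pairs (58.6%), only 1 of them in 125 and none in 71, against 74.7% of tail-to-tail pairs with both tested. No read in any library was counted for 141 of the 946 members, against 137 of 2780 tail-to-tail members and 6317 of all 28299 genes.

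Library totals were 15335390 to 17647188 counts in lhp1ab and 20551374 to 22366054 in WT, so that a count of 0 allows up to 0.196 and 0.146 CPM (counts scaled to the library total; 3 counts in the shallowest library of each genotype, counting error only). Head-to-head members together took 2.51%, 2.54% and 2.56% of the counts in the lhp1ab libraries, against 3.07%, 3.03% and 3.12% in the WT libraries. All 3 lhp1ab libraries were thus below all 3 WT libraries. Without the 10 most abundant members the shares were 2.12 to 2.19% in lhp1ab and 2.44 to 2.50% in WT, again without overlap. Tail-to-tail members went the other way by a small margin, with 14.42 to 14.48% in lhp1ab and 14.16 to 14.18% in WT. These shares are relative to the library total, and in bulk leaf RNA fewer cells of a type and less RNA per cell cannot be told apart.

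Head-to-head members had smaller changes in the mutant than tested genes as a whole, and fewer of them were called higher. Of the 679 tested members, 185 (27.2%) were called higher in lhp1ab, against 36.9% of all 17988 tested genes (edgeR's quasi-likelihood test over all genes, Benjamini-Hochberg adjusted p threshold of 0.05). Lower calls concerned 280 members (41.2%), against 38.5% of all tested genes, and 214 members were not called. In tail-to-tail members the shares were 35.2% higher and 41.7% lower. The median absolute log2 fold change was 0.43 in head-to-head members, 0.58 in tail-to-tail members and 0.60 over all tested genes, while the median SE was similar, at 0.091, 0.087 and 0.094. The median signed change was -0.13 in head-to-head members and -0.02 over all genes. These sets were not tested against each other, since genes are not replicates of a genotype.

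Large rises were also a smaller share of members than of all tested genes. At least 2-fold higher were 47 members (6.92%), against 16.7% of all tested genes, and at least 4-fold higher were 15 members (2.21%), against 6.87%. At least 2-fold lower were 76 members (11.2%), against 14.4% of all tested genes, and at least 4-fold lower were 25 (3.68%), against 5.08%. When a change had to exceed 1.5-fold (glmTreat, same fit and threshold), 71 members (10.5%) were higher and 120 (17.7%) lower, against 20.9% and 19.3% of all tested genes. Changes of members ran from -4.18 to 3.23 on the log2 scale, against -8.10 to 12.00 over all tested genes. Such extremes also widen with the number of genes. The 90th percentile of the absolute log2 fold change was 1.42 in members and 2.24 over all tested genes. Under all 13 settings tried, which varied the test, the scaling, the filter or the libraries, the share of higher members was below that of all genes, by 8.00 to 10.6 percentage points, and the median absolute change was 0.41 to 0.46 in head-to-head members and 0.60 to 0.69 over all genes.

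**Figure D1:**
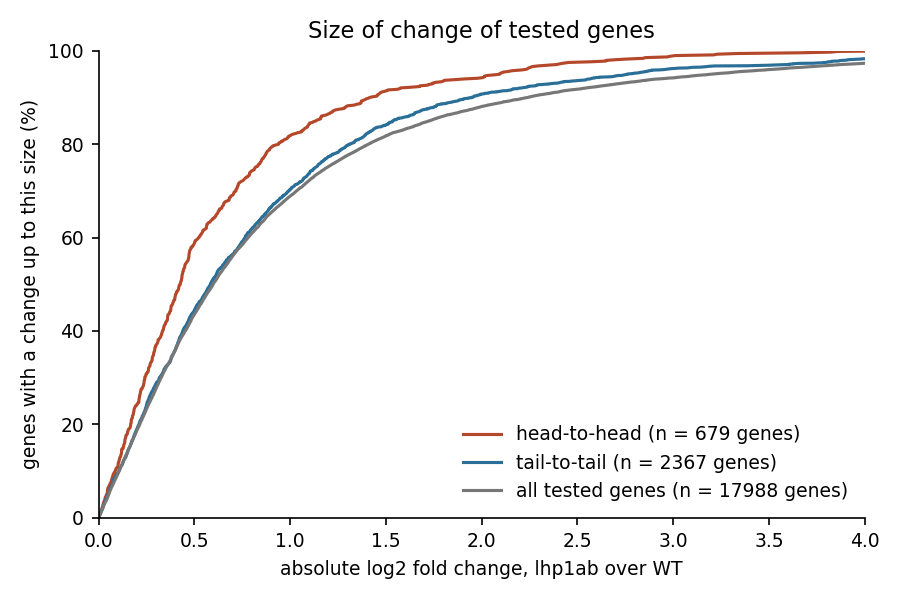
Cumulative share of tested genes (y axis, percent) with an absolute log2 fold change, lhp1ab over WT, up to the value on the x axis (cut at 4), for head-to-head members, tail-to-tail members and all tested genes. The head-to-head curve lies left of the other curves, with a median of 0.43 against 0.58 in tail-to-tail members and 0.60 over all genes.

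The smaller changes were seen at every level of expression, and most clearly among weakly expressed genes. Tested genes were split into 4 equal groups by mean log2 CPM over all 6 libraries. In the lowest group, the median absolute log2 fold change was 0.50 in 135 head-to-head members, 0.99 in 436 tail-to-tail members and 0.96 over all genes, and 21.5% of head-to-head members were called higher against 35.2% of all genes there. In the next group the medians were 0.39, 0.66 and 0.61, and in the one above it 0.37, 0.45 and 0.47. In the highest group the sets lay close together, at 0.48, 0.52 and 0.53, and 50.7% of the 144 head-to-head members there were called lower against 44.7% of all genes. The median level of tested members, as TPM (counts per exon length, scaled to the same sum in each library), was 16.2 TPM in lhp1ab and 17.9 TPM in WT. Over all tested genes it was 17.8 TPM in lhp1ab and 17.97 TPM in WT.

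Within head-to-head pairs the size of the change was smallest at short distances. Members up to 250, 500 and 1000 bp apart in successive classes had a median absolute log2 fold change of 0.42, 0.42 and 0.43. Genes of head-to-head pairs just beyond the limit, up to 2000 bp apart, had 0.53, and the next class, up to 5000 bp, had 0.59, close to the median over all genes. Tail-to-tail members stayed between 0.58 and 0.62 in all 5 distance classes. Higher calls were least frequent in the closest head-to-head class, with 25 of 134 tested members (18.7%), and came to 29.5%, 29.3%, 30.5% and 36.0% in the following classes. Lower calls moved little over the same classes, between 40.9% and 43.4%.

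**Figure D2:**
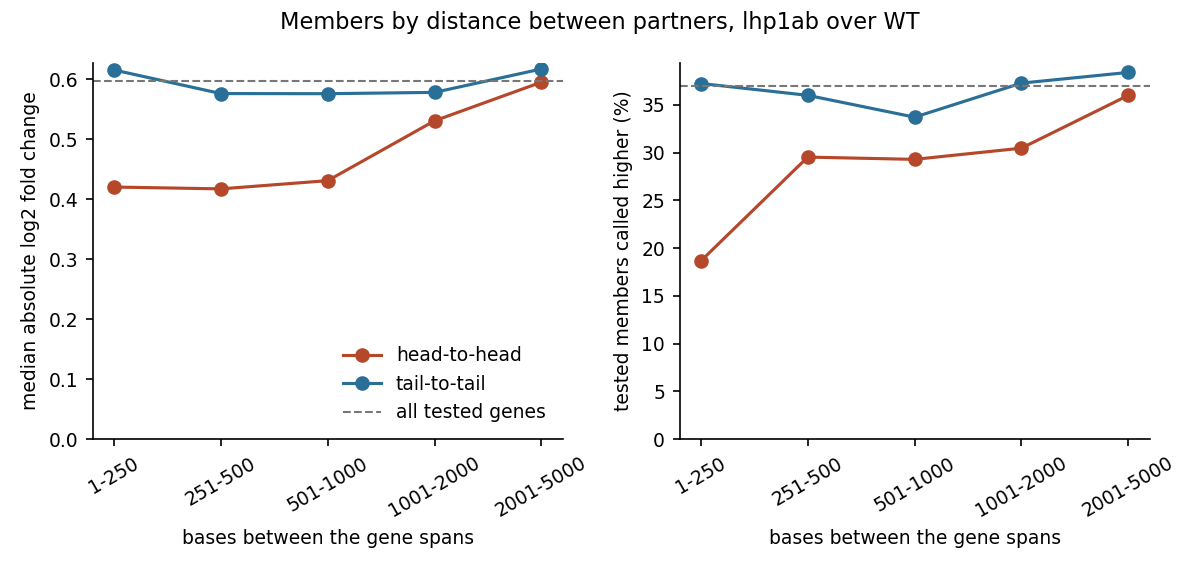
Median absolute log2 fold change (left) and share of tested members called higher in lhp1ab (right, percent) by the number of bases between the gene spans, for head-to-head and tail-to-tail pairs, with all tested genes as a dashed line. Head-to-head members within 1000 bp lie at 0.42 to 0.43, below the 0.60 of all genes, and approach it in the class that ends at 5000 bp.

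Minus-strand and plus-strand members gave similar median changes, and so did members with a partner too weak to be tested. The median absolute log2 fold change was 0.44 in the 339 tested minus-strand members and 0.41 in the 340 tested plus-strand members. It was 0.42 in the 554 members whose partner was tested too and 0.45 in the 125 members whose partner was not. Higher calls made up 27.1% of members with a tested partner and 28.0% of those without, and lower calls 41.5% and 40.0%. Large falls were less alike. At least 2-fold lower were 10.3% of members with a tested partner and 15.2% of those without, and at least 4-fold lower 3.25% and 5.6%. Among the 141 tested members that also belong to a tail-to-tail pair, 25.5% were higher and 46.8% lower.

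About as many pairs changed in opposite directions as fell together, and fewer rose together. Of the 277 pairs with both genes tested, 22 (7.94%) had both genes higher, 48 (17.3%) both lower, 52 (18.8%) 1 higher and 1 lower, 136 (49.1%) only 1 gene called and 19 (6.86%) none. Tail-to-tail pairs had both genes higher in 13.3%, both lower in 17.04%, opposite calls in 28.7% and only 1 gene called in 35.0% of 1039 pairs. Over all 13512 consecutive pairs with both genes tested, these shares were 15.7%, 17.3%, 25.4% and 34.2%. Neither gene was called in 5.97% of tail-to-tail pairs and 7.42% of all consecutive pairs, near the head-to-head share. Where both genes were called, the direction was shared in 70 of 122 head-to-head pairs (57.4%), 315 of 613 tail-to-tail pairs (51.4%) and 56.5% of all consecutive pairs. The head-to-head share was thus near that of neighbours in general. Pairs with no call numbered 33, 34 and 33 without lhp1ab replicate 2, WT replicate 1 or WT replicate 3, over 1.5 times the 19 from all libraries. These counts were not set against other pairs.

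The median absolute difference between the partners' log2 fold changes was 0.61 in head-to-head pairs, 0.94 in tail-to-tail pairs, 0.68 in same-strand pairs within 1000 bp and 0.86 over all consecutive pairs. Head-to-head members also changed less on their own, with a median of 0.43 against 0.58 in tail-to-tail members. Their smaller difference therefore need not mean that partners are alike. The fold changes of partners were almost unrelated, with Pearson's r of 0.10 and Spearman's rho of 0.08 across 277 head-to-head pairs, against 0.0076 and -0.0015 across 1039 tail-to-tail pairs. Same-strand neighbours within 1000 bp had 0.31 and 0.28 across 1184 pairs. These are descriptions across pairs, which share the same 6 libraries. With both partners at 5 CPM or more on average, r was -0.0026 in head-to-head pairs. Each lhp1ab library set against the WT mean gave r of 0.055, 0.080 and 0.13 across the 277 pairs.

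Values for the closest pairs, at most 250 bp apart, were higher than for all head-to-head pairs, and those of same-strand neighbours were higher still. Across the 55 with both genes tested, r was 0.35 and rho 0.24, and without the 2 pairs farthest from the median change of the minus-strand gene r was 0.25 and rho 0.24. Both genes were lower in 12 of these pairs (21.8%, against 17.3% of all consecutive pairs), both higher in 1 (1.82%, against 15.7%) and opposite in 6 (10.9%, against 25.4%). Few single members of this class were called higher to begin with, 18.7% of those tested against 36.9% of all tested genes. How far the pair shares follow from this was not tested. In the next class, up to 500 bp, r was -0.07 across 58 pairs with 14 opposite and 14 same-direction pairs. Tail-to-tail pairs at most 250 bp apart had r of 0.03 across 249 pairs, with 88 of 149 pairs (59.1%) that had both genes called moving in the same direction. Same-strand pairs at most 250 bp apart had r of 0.61 across 217 pairs, with 96 of 118 pairs (81.4%) moving in the same direction. With only 19 closest head-to-head pairs called on both sides, few values carry this pattern.

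**Figure D3:**
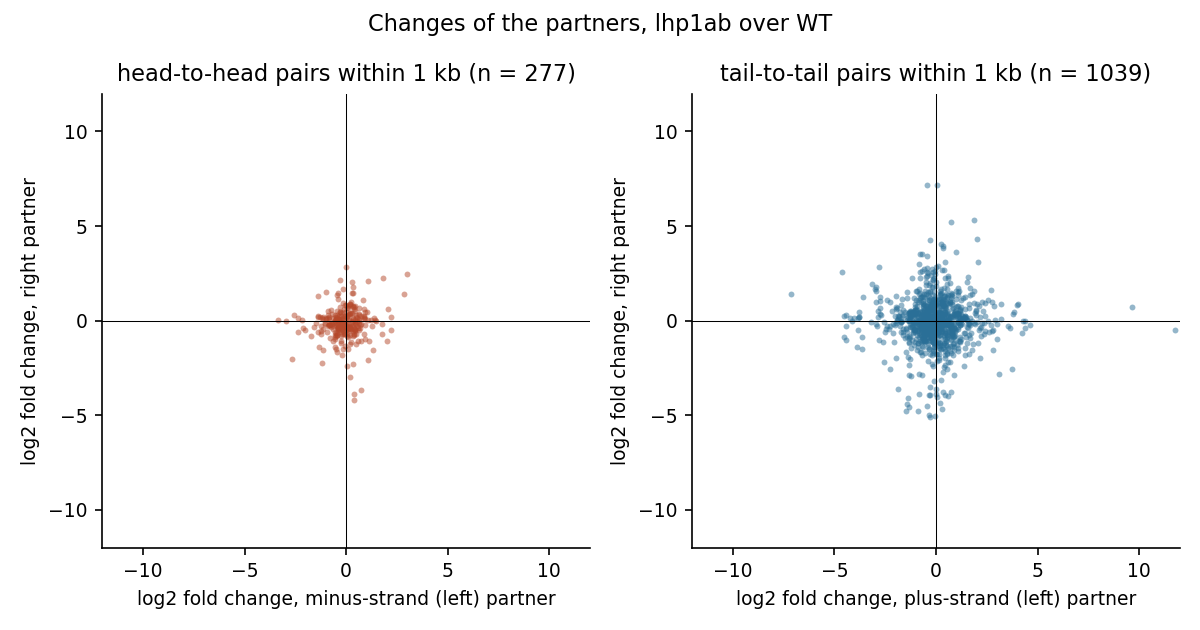
Log2 fold changes (lhp1ab over WT) of both partners, left gene on the x axis and right gene on the y axis, for 277 head-to-head and 1039 tail-to-tail pairs within 1000 bp with both genes tested, 1 point a pair. The head-to-head points show little slope (r of 0.10) and lie within -4.18 to 3.01. Their cloud is tighter than that of the more numerous tail-to-tail pairs.

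The balance between partners was tested directly, as the log2 ratio of their levels in each library. This ratio differed between lhp1ab and WT in 190 of 277 head-to-head pairs (68.6%), against 70.6% of all 13512 consecutive pairs (limma with trend over all consecutive pairs, Benjamini-Hochberg adjusted p threshold of 0.05), a share near the background, and in 77.5% of tail-to-tail pairs. The median absolute change of the ratio was 0.62 on the log2 scale in head-to-head pairs and 0.94 in tail-to-tail pairs, with a median SE of 0.15 and 0.14. This change is in essence the difference between the partners' log2 fold changes given above, and not a separate result. The ratio was changed in 56.4% of head-to-head pairs in the class up to 250 bp, 63.8% in the class up to 500 bp and 74.4% in the class up to 1000 bp. Same-strand pairs also rose over these classes, with 44.7%, 60.5% and 69.8%. Tail-to-tail pairs had 77.9%, 78.8% and 76.5%.

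Partners of strongly changed genes moved in either direction. Of the 18 members at least 4-fold lower with a tested partner, 5 had a partner that was lower, 6 a partner that was higher and 7 a partner that was not called. The median log2 fold change of these partners was 0.04. Such partners were lower in 27.8% of cases here, 41.6% in tail-to-tail pairs and 47.9% over all consecutive pairs. Of the 12 members at least 4-fold higher, 7 had a partner that was higher, 3 a partner that was lower and 2 a partner that was not called, with a median partner change of 0.44. In tail-to-tail pairs 32 of 96 partners of such higher genes were higher and 41 lower, and over all consecutive pairs 49.9% of 1721 were higher. The 12 members are few and were chosen by their own change.

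The share of partners close in level was near that of neighbours in general, and very wide differences made up a smaller share. Compared per exon length, the median difference between partners was 1.74 on the log2 TPM scale (3.34-fold) in lhp1ab and 1.65 (3.14-fold) in WT, against 1.78 in lhp1ab and 1.76 in WT in tail-to-tail pairs. Partners lay within 2-fold of each other in 87 pairs (31.4%) in lhp1ab and in 85 (30.7%) in WT, against 30.3% of all consecutive pairs in lhp1ab and 30.4% in WT. They differed by over 16-fold in 27 pairs (9.75%) in lhp1ab and 32 (11.6%) in WT. Such wide differences were found in 16.2% of tail-to-tail pairs in lhp1ab and 16.0% in WT, and in 15.9% of all consecutive pairs in lhp1ab and 16.7% in WT. These shares were not tested against each other. Levels of tested head-to-head members were also less spread, with quartiles of 6.73 and 34.1 TPM in lhp1ab. Those of tail-to-tail members were 7.40 and 43.9 TPM, and those of all tested genes 6.38 and 40.8 TPM. Whether the smaller share of wide differences follows from this spread was not tested.

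Within each library the levels of partners were almost unrelated across the 277 pairs. Spearman's rho was 0.041, 0.030 and 0.031 in the lhp1ab libraries, against 0.112, 0.110 and 0.121 in the WT libraries. Pearson's r of log2 TPM was 0.059 to 0.068 in lhp1ab and 0.128 to 0.150 in WT. Both measures were lower in all 3 lhp1ab libraries than in any WT library, although all were small. Same-strand neighbours within 1000 bp were likewise without overlap, with rho of 0.140 to 0.149 in lhp1ab and 0.174 to 0.182 in WT. Over all consecutive pairs, rho of the genotype means was 0.090 in lhp1ab and 0.103 in WT, near the head-to-head value of WT. In tail-to-tail pairs rho was 0.047 to 0.054 in lhp1ab and 0.054 to 0.055 in WT. When pairs with untested partners were included, rho was 0.29 in lhp1ab and 0.32 in WT across all 473 head-to-head pairs and 0.10 in both genotypes across all 1390 tail-to-tail pairs, which then also hold pairs with no tested gene.

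**Figure D4:**
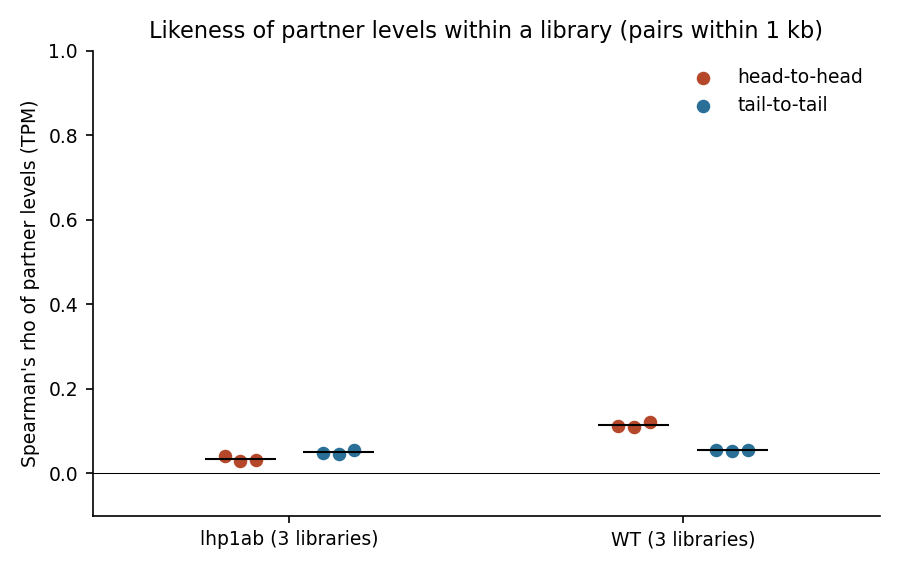
Spearman's rho between the levels (TPM) of partners, 1 point a library and black bars for the mean of 3, for head-to-head pairs (n = 277) and tail-to-tail pairs (n = 1039) within 1000 bp. Head-to-head pairs lie at 0.030 to 0.041 in lhp1ab and 0.110 to 0.121 in WT, all far below 1.

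Named pairs were chosen by rule among 208 head-to-head pairs with both genes tested and at 5 CPM or more in their higher genotype. A gene could pass this limit through 1 genotype alone, so the named pairs are examples and no count over them is given. Coordinates are on release 4.0 of the melon genome. Adjusted p-values are from edgeR for single genes and from limma for ratios, and fold changes carry the SE on the log2 scale.

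The largest joint rise was on chromosome 9, where 640 bp separate maker-Chr9-exonerate_est2genome-gene-7.17 (744523 to 750028, minus strand, 7 exons) from maker-Chr9-exonerate_est2genome-gene-7.4 (750669 to 766676, plus strand, 7 exons). The minus-strand gene had 6.06, 7.89 and 8.996 TPM in lhp1ab, against 1.18, 0.970 and 1.12 TPM in WT. The plus-strand gene had 6.50, 8.08 and 8.27 TPM in lhp1ab, against 2.95, 2.81 and 3.11 TPM in WT. Both genes were higher in every mutant library than in any WT library, and their means in lhp1ab were close, at 7.65 and 7.61 TPM. The rise was 7.22-fold (log2 2.85, SE 0.16, edgeR adjusted p = 3.22e-08) on the minus strand and 2.67-fold (log2 1.41, SE 0.09, edgeR adjusted p = 1.16e-07) on the plus strand. The ratio of minus-strand over plus-strand gene rose by 1.38 on the log2 scale (SE 0.14, limma adjusted p = 6.87e-05).

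The other joint rises were smaller in at least 1 partner. On chromosome 3, maker-Chr3-exonerate_est2genome-gene-6.7 (620152 to 628421, minus strand, 14 exons) had 3.82, 5.19 and 3.43 TPM in lhp1ab, against 0.786, 1.17 and 1.13 TPM in WT (log2 fold change 2.07, SE 0.19, edgeR adjusted p = 2.49e-06). Its partner 382 bp away, maker-Chr3-exonerate_est2genome-gene-6.5 (628804 to 632826, plus strand, 5 exons), had 44.4, 44.7 and 43.1 TPM in lhp1ab, against 30.7, 28.2 and 32.0 TPM in WT (log2 fold change 0.60, SE 0.08, edgeR adjusted p = 3.35e-05). The more weakly expressed partner thus rose 4.19-fold and the more strongly expressed one 1.51-fold, and a span of this pair overlaps another gene. On chromosome 2, the single-exon maker-Chr2-exonerate_est2genome-gene-258.14 (25813676 to 25815677, minus strand) rose 1.92-fold and maker-Chr2-exonerate_est2genome-gene-258.3 (25816321 to 25820800, plus strand, 8 exons), 643 bp away, rose 1.40-fold. The single-exon gene had 20.4, 20.6 and 21.5 TPM in lhp1ab, against 11.9, 12.0 and 10.0 TPM in WT. Its partner had 14.8, 16.9 and 15.9 TPM in lhp1ab, against 11.4, 11.6 and 12.5 TPM in WT, and the genotypes did not overlap in either gene.

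Joint falls included strongly expressed genes. On chromosome 11, 168 bp separate maker-Chr11-exonerate_est2genome-gene-271.14 (27127425 to 27128624, minus strand, 3 exons) from the 49-exon gene maker-Chr11-exonerate_est2genome-gene-271.4 (27128793 to 27163144, plus strand). The short gene had 293, 269 and 265 TPM in lhp1ab, against 636, 631 and 683 TPM in WT. The long gene had 1.78, 2.97 and 3.14 TPM in lhp1ab, against 12.99, 14.1 and 11.5 TPM in WT. Levels within the pair thus differed by more than 16-fold in every library while both fell, 2.26-fold in the short gene (log2 fold change -1.18, SE 0.08, edgeR adjusted p = 1.93e-07) and 4.72-fold in the long one (log2 fold change -2.24, SE 0.14, edgeR adjusted p = 1.06e-07).

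Both partners also fell in a second pair on chromosome 11 and in 1 on chromosome 8. With 523 bp between them, maker-Chr11-exonerate_est2genome-gene-313.12 (31317076 to 31318867, minus strand, 2 exons) had 8.72, 9.64 and 11.4 TPM in lhp1ab, against 21.2, 23.9 and 23.8 TPM in WT, and fell 2.24-fold. Its partner maker-Chr11-exonerate_est2genome-gene-313.3 (31319391 to 31321993, plus strand, 7 exons) had 216, 203 and 177 TPM in lhp1ab, against 609, 549 and 691 TPM in WT, and fell 2.98-fold. The change of their ratio, 0.43 on the log2 scale (SE 0.18), did not pass the test (limma adjusted p = 0.069), but passed it without lhp1ab replicate 1 (0.58, limma adjusted p = 0.018). On chromosome 8, only 74 bp separate maker-Chr8-exonerate_est2genome-gene-29.7 (2948321 to 2951983, minus strand, 4 exons) from maker-Chr8-exonerate_est2genome-gene-29.3 (2952058 to 2965854, plus strand, 26 exons). The 4-exon gene had 14.2, 15.3 and 14.02 TPM in lhp1ab, against 24.8, 27.4 and 27.4 TPM in WT. The 26-exon gene had 13.5, 16.4 and 18.8 TPM in lhp1ab, against 30.9, 32.7 and 29.8 TPM in WT. Both partners of this pair had like levels and like falls, 1.76-fold and 1.86-fold, with a ratio change of 0.09 (SE 0.14, limma adjusted p = 0.60).

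Opposite changes of head-to-head partners were also found. On chromosome 4, 368 bp separate maker-Chr4-exonerate_est2genome-gene-327.17 (32763827 to 32770999, minus strand, 5 exons) from maker-Chr4-exonerate_est2genome-gene-327.7 (32771368 to 32775030, plus strand, 5 exons). The minus-strand gene had 12.3, 13.1 and 13.6 TPM in lhp1ab, against 3.42, 3.15 and 3.48 TPM in WT. The plus-strand gene had 70.0, 75.2 and 74.5 TPM in lhp1ab, against 168, 172 and 148 TPM in WT. One partner rose 4.02-fold (log2 2.01, SE 0.07, edgeR adjusted p = 7.97e-10) while the other fell 2.14-fold (log2 fold change -1.10, SE 0.06, edgeR adjusted p = 6.14e-08), and their ratio rose by 3.10 on the log2 scale (SE 0.10, limma adjusted p = 1.79e-07).

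On chromosome 12, with 742 bp between them, maker-Chr12-exonerate_est2genome-gene-255.17 (25568599 to 25572397, minus strand, 11 exons) had 663, 644 and 647 TPM in lhp1ab, against 319, 323 and 324 TPM in WT. Its partner maker-Chr12-exonerate_est2genome-gene-255.9 (25573140 to 25576483, plus strand, 2 exons) had 3.34, 3.71 and 3.41 TPM in lhp1ab, against 16.0, 16.8 and 13.8 TPM in WT. An abundant transcript thus rose 2.10-fold beside a weak one that fell 4.28-fold, with a ratio change of 3.15 (SE 0.10, limma adjusted p = 1.66e-07). On chromosome 8, 328 bp apart, maker-Chr8-exonerate_est2genome-gene-26.7 (2601291 to 2610535, minus strand, 20 exons) had 16.8, 26.0 and 26.1 TPM in lhp1ab, against 46.1, 53.3 and 42.7 TPM in WT. Its partner maker-Chr8-exonerate_est2genome-gene-26.1 (2610864 to 2612433, plus strand, 5 exons) had 86.3, 91.0 and 83.8 TPM in lhp1ab, against 33.0, 30.7 and 31.6 TPM in WT. The first of these fell 1.99-fold and the second rose 2.85-fold, again without overlap between genotypes. A span of this chromosome 8 pair overlaps another gene.

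The largest falls of 1 gene relative to its partner came from pairs in which that gene fell far while its partner rose a little. On chromosome 7, 620 bp separate maker-Chr7-exonerate_est2genome-gene-1.12 (145825 to 158101, minus strand, 6 exons) from maker-Chr7-exonerate_est2genome-gene-1.3 (158722 to 161902, plus strand, 11 exons). The plus-strand gene had 2.29, 2.80 and 2.75 TPM in lhp1ab, against 51.3, 48.3 and 47.8 TPM in WT. Its partner had 23.0, 24.9 and 27.7 TPM in lhp1ab, against 20.6, 20.0 and 19.7 TPM in WT. The 18.1-fold fall (log2 fold change -4.18, SE 0.09, edgeR adjusted p = 4.77e-11) thus stood beside a 1.30-fold rise (log2 0.38, SE 0.08, edgeR adjusted p = 0.00188). A like pattern was seen on chromosome 8, where maker-Chr8-exonerate_est2genome-gene-53.1 (5351188 to 5354092, plus strand, 6 exons) had 1.51, 2.13 and 2.03 TPM in lhp1ab, against 24.4, 23.9 and 26.0 TPM in WT, a 12.6-fold fall. Its partner 409 bp away, maker-Chr8-exonerate_est2genome-gene-53.21 (5344733 to 5350778, minus strand, 10 exons), rose 1.67-fold and averaged 16.97 ± 0.638 TPM in lhp1ab and 10.6 ± 0.858 TPM in WT (SD, n = 3).

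The reverse case, a strong rise beside a partner that was not called, was found on chromosome 7 with 878 bp between the genes. There maker-Chr7-exonerate_est2genome-gene-4.9 (444827 to 447870, plus strand, 5 exons) had 53.3, 53.5 and 56.3 TPM in lhp1ab, against 8.28, 7.67 and 7.65 TPM in WT, a 7.18-fold rise (log2 2.84, SE 0.07, edgeR adjusted p = 9.19e-11). Its partner maker-Chr7-exonerate_est2genome-gene-4.20 (442254 to 443948, minus strand, 5 exons) had 143, 134 and 125 TPM in lhp1ab, against 138, 129.8 and 158 TPM in WT. The genotypes overlapped in this gene, and its change of -0.02 (SE 0.10) did not pass the test (edgeR adjusted p = 0.83).

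**Figure D5:**
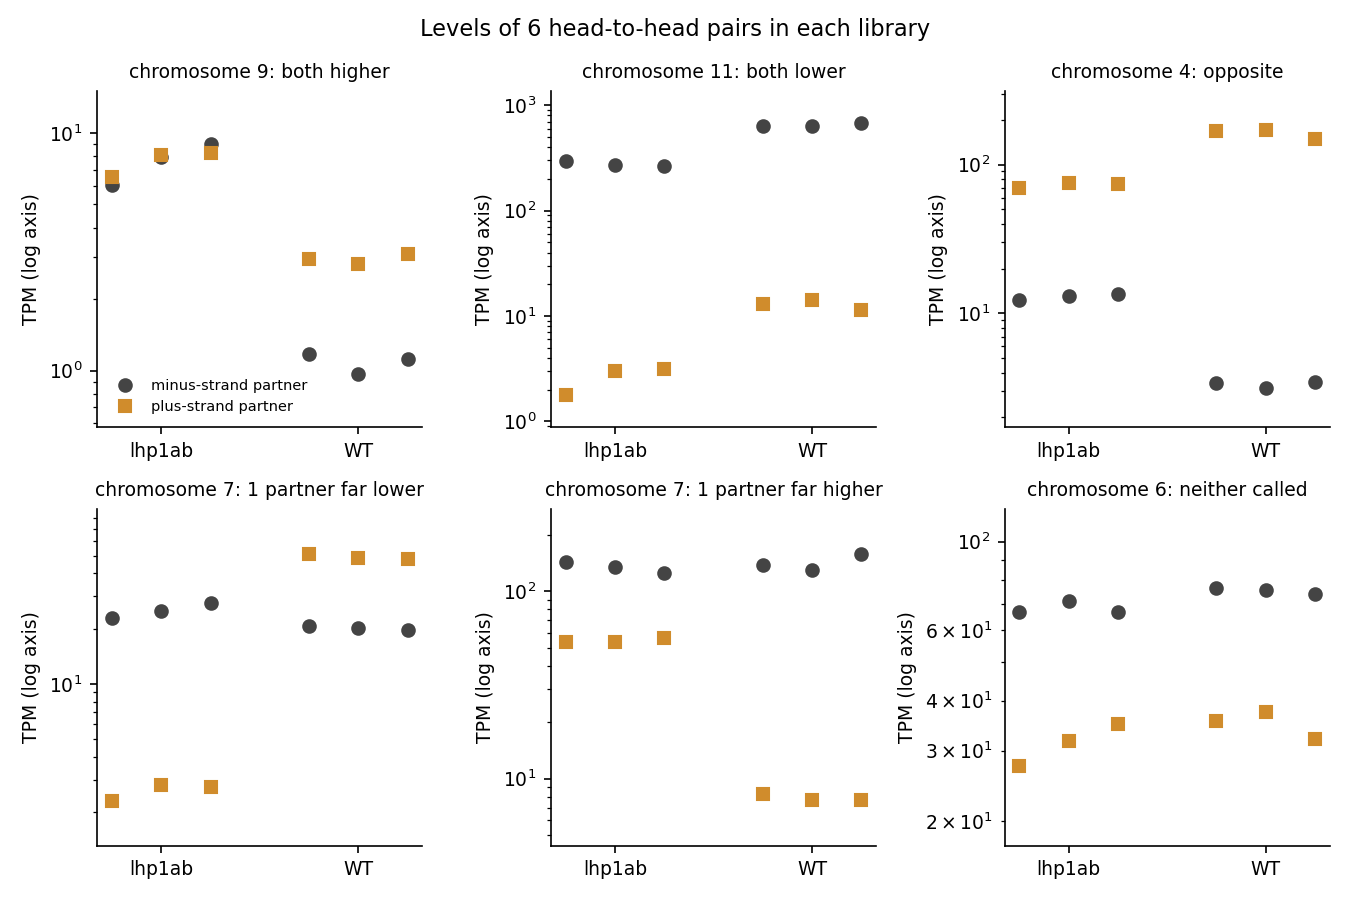
Level (TPM, log axis) of the minus-strand and the plus-strand gene of 6 head-to-head pairs in each of 3 lhp1ab and 3 WT libraries, 1 point a library. The panels show joint rise, joint fall, opposite change, a far larger fall or rise of 1 partner than of the other, and a pair with neither gene called, in which the genotypes lie closest.

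The pairs whose lesser partner had the highest WT level were lower in lhp1ab on both sides. They were chosen by that WT level, a choice that favours genes lower in lhp1ab. On chromosome 5, 642 bp apart, maker-Chr5-exonerate_est2genome-gene-29.13 (2979609 to 2987008, minus strand, 11 exons) had 228, 224 and 231 TPM in lhp1ab, against 341, 338 and 353 TPM in WT. Its partner maker-Chr5-exonerate_est2genome-gene-29.4 (2987651 to 2988836, plus strand, 2 exons) had 129, 122 and 119 TPM in lhp1ab, against 339, 329 and 325 TPM in WT. Levels that were nearly equal in WT were apart in lhp1ab, where the minus-strand gene fell 1.45-fold and the plus-strand gene 2.59-fold (ratio change 0.83, SE 0.07, limma adjusted p = 1.63e-05). On chromosome 8, 604 bp apart, maker-Chr8-exonerate_est2genome-gene-4.14 (406682 to 410665, minus strand, 2 exons) fell 2.24-fold and maker-Chr8-exonerate_est2genome-gene-4.2 (411270 to 414921, plus strand, 7 exons) fell 1.36-fold. Their means were 52.2 ± 2.31 and 111 ± 3.85 TPM in lhp1ab, against 121 ± 6.97 and 157 ± 4.68 TPM in WT (SD, n = 3).

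The closest of the eligible pairs, on chromosome 9, has 2 bp between the spans. Its minus-strand gene maker-Chr9-exonerate_est2genome-gene-10.10 (1044138 to 1047675, 6 exons) had 56.8, 58.2 and 59.1 TPM in lhp1ab, against 38.8, 36.4 and 42.9 TPM in WT, and rose 1.53-fold. The plus-strand gene maker-Chr9-exonerate_est2genome-gene-10.3 (1047678 to 1052268, 6 exons) had 30.9, 30.5 and 36.5 TPM in lhp1ab, against 37.5, 38.5 and 36.1 TPM in WT. Its change of -0.14 (SE 0.07) was not called (edgeR adjusted p = 0.090), although it was without lhp1ab replicate 3 (-0.20, edgeR adjusted p = 0.028) and with library totals alone (-0.19, edgeR adjusted p = 0.034). The balance of these almost touching genes differed between genotypes (ratio change 0.76, SE 0.11, limma adjusted p = 0.00046). A span of this pair also overlaps another gene.

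In some pairs neither gene was called. The evenest, on chromosome 6 with 805 bp between the spans, joins maker-Chr6-exonerate_est2genome-gene-46.3 (4589915 to 4595936, minus strand, 12 exons) and maker-Chr6-exonerate_est2genome-gene-46.0 (4596742 to 4602358, plus strand, 7 exons). They averaged 68.1 ± 2.38 and 31.4 ± 3.79 TPM in lhp1ab, against 75.4 ± 1.22 and 35.0 ± 2.67 TPM in WT (SD, n = 3). The changes were -0.09 (SE 0.06, edgeR adjusted p = 0.19) and -0.11 (SE 0.08, edgeR adjusted p = 0.22), and the first was called with library totals alone (-0.14, edgeR adjusted p = 0.044). On chromosome 1, 192 bp apart, maker-Chr1-exonerate_est2genome-gene-31.38 (3178902 to 3181238, minus strand, 5 exons) averaged 76.2 ± 3.08 TPM in lhp1ab and 72.2 ± 1.17 TPM in WT. Its single-exon partner maker-Chr1-exonerate_est2genome-gene-31.15 (3181431 to 3182858, plus strand) averaged 6.48 ± 1.08 TPM in lhp1ab and 6.56 ± 0.850 TPM in WT (SD, n = 3). The first was called without lhp1ab replicate 3 (0.19, edgeR adjusted p = 0.040).

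Abundant genes also stood next to genes with hardly any counts. In 91 pairs 1 gene had at most 3 counts in every library and the other had more, and in 56 pairs both had at most 3. These numbers were not set against other neighbours. Genes without any count were 141 of 946 members and 6317 of all 28299 genes. The pairs below were chosen by the highest WT level of the expressed gene, which favours genes lower in lhp1ab. On chromosome 10, maker-Chr10-exonerate_est2genome-gene-43.22 (4332084 to 4334554, minus strand, 9 exons) had 827, 774 and 767 TPM in lhp1ab, against 1767, 1735 and 1714 TPM in WT, and fell 2.12-fold (log2 fold change -1.08, SE 0.07, edgeR adjusted p = 1.71e-07). Its single-exon neighbour maker-Chr10-exonerate_est2genome-gene-43.3 (4335029 to 4335280, plus strand), 474 bp away, had 0 counts in all 6 libraries. On chromosome 12, maker-Chr12-exonerate_est2genome-gene-29.14 (2902053 to 2903757, minus strand, 5 exons) had 352, 338 and 356 TPM in lhp1ab, against 787, 768 and 936 TPM in WT, and fell 2.29-fold. Its 4-exon partner maker-Chr12-exonerate_est2genome-gene-29.2 (2904588 to 2905818, plus strand), 830 bp away, likewise had 0 counts in all 6 libraries. Both models without counts have a summed exon length of 252 bases. Reads were counted only at a mapping quality of at least 30, so 0 counts need not mean no transcript.

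Pairs on both sides of the 1000 bp limit are given as values only. The last pair inside it, with 999 bp between the spans on chromosome 3, joins maker-Chr3-exonerate_est2genome-gene-273.9 (27330197 to 27331975, minus strand) and maker-Chr3-exonerate_est2genome-gene-273.4 (27332975 to 27336174, plus strand). They averaged 6.89 ± 0.278 and 39.9 ± 2.49 TPM in lhp1ab, against 18.5 ± 1.87 and 34.5 ± 1.90 TPM in WT (SD, n = 3). The first pair outside, on chromosome 10, joins maker-Chr10-exonerate_est2genome-gene-45.11 (4513139 to 4518219, minus strand) and maker-Chr10-exonerate_est2genome-gene-45.1 (4519221 to 4522669, plus strand). They averaged 8.69 ± 0.464 and 63.1 ± 2.18 TPM in lhp1ab, against 12.2 ± 0.577 and 123 ± 2.23 TPM in WT (SD, n = 3).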

How the data were processed

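Read counts per gene of 3 lhp1ab and 3 WT leaf libraries were used as deposited. Per the file headers, the authors made these raw counts with featureCounts 1.6.4 summing exons per gene with reverse strandedness (setting 2), at a mapping quality of at least 30, counting a read for every gene it overlaps and allowing multi-mapping reads, on a liftover annotation of melon genome release 4.0. The submitters' processing notes also name STAR, Trimmomatic 0.38, DESeq2 and R 3.5.1. Reads shared by overlapping genes of 1 strand count for each of them, and near-identical copies are uncertain. The spans of 29 members overlapped another gene on the same strand, but how many reads were shared was not determined. None of the gene identifiers occurs in the reference table of 28628 genes of another assembly, so gene names, gene lists and sequences were not used here.

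Gene spans ran from the lowest exon start to the highest exon end. Genes were sorted by start, and consecutive genes formed pairs. TPM were computed from counts and exon length. Genes were tested two-sided in R 4.3.3 by the quasi-likelihood F-test of edgeR 4.0.16, after TMM normalization and filterByExpr's filter on low counts, with a group term and no covariates, adjusted over all tested genes. SE were taken as the fold change over the square root of F. The log2 ratio of partners (log2 CPM, prior count 2) was tested with limma 3.58.1, adjusted over all 13512 consecutive pairs with both genes tested. Levels were correlated as log2(TPM + 0.1). Correlations across pairs are descriptions. Both tests were tested on simulated data.

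The pair set, comparisons and naming rule were chosen with earlier results of these data known. Named among pairs with both genes at 5 CPM or more in the higher genotype were the 3 pairs each with the largest smaller change for both higher, both lower and opposite calls, the 2 largest rises and 2 largest falls of the ratio (the more changed gene on top), the 2 with the highest WT level of the lesser gene, the closest pair, and the 2 evenest pairs without a call. Outside them, 2 pairs were named that had a gene of at most 3 counts in every library and the highest WT level of the other gene. The pairs at the distance limit were named too. Totals were 15335390 to 22366054 counts a library. Alternatives were RLE, library totals, DESeq2 1.42.0, no filter, glmTreat, other prior counts, pseudocounts and distance limits, a replicate block and left-out libraries.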

Additional observations from a re-analysis of the deposited data

How the results depend on the processing

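No called change of a named gene or ratio changed sign in any alternative. Leaving glmTreat aside, 5 genes or ratios crossed the threshold in 1 or 2 alternatives each. Since glmTreat asks for a change over 1.5-fold, named genes called with smaller changes cannot be called by it and are not in this count. Besides those given above, the ratio change of the chromosome 2 pair was not called without lhp1ab replicate 3 (0.44, limma adjusted p = 0.050), and that of the second chromosome 11 pair was called when the ratio was fitted only over pairs without overlap (0.43, limma adjusted p = 0.044), an alternative chosen after seeing the data. The share of head-to-head members called higher was 23.9% with DESeq2, 23.6% without the filter on low counts and 10.5% with glmTreat, and the share called lower was 32.8%, 36.0% and 17.7%. Over all tested genes the same settings gave 33.1%, 31.6% and 20.9% higher, and 31.5%, 32.8% and 19.3% lower. With glmTreat 3752 genes were higher and 3470 lower in all, and head-to-head pairs were both higher in 1.44%, both lower in 2.53%, opposite in 3.25%, called on 1 side in 38.6% and not called in 54.2%. DESeq2 left 12.1% both lower, 14.1% opposite and 17.9% with no call, and no filter left 14.3% with no call. These pair shares were not set against those of all pairs under the same setting. The median absolute log2 fold change of tail-to-tail members was 0.598 with library totals, 0.600 with DESeq2 and 0.632 without the filter, and that of all genes was 0.642 with DESeq2 and 0.692 without the filter.

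At a distance limit of 500 bp, 10.6% of head-to-head pairs had no call and 60.2% a changed ratio, and rho of fold changes was 0.117. In tail-to-tail pairs r was 0.026, rho 0.043 and the median difference 1.01. Partner levels then gave r of 0.075 in lhp1ab, and r of 0.093, rho of 0.086 and a median difference of 1.62 in WT for head-to-head pairs. For tail-to-tail pairs they gave r of 0.046 and a median difference of 1.82 in lhp1ab, and r of 0.032 and rho of 0.053 in WT. Without pairs overlapping another gene, head-to-head levels had rho of 0.046 in lhp1ab, and r of 0.121 and rho of 0.102 in WT. Tail-to-tail levels had r of 0.044, rho of 0.059 and a median difference of 1.75 in lhp1ab and rho of 0.061 in WT, and the fold changes a median difference of 0.98. With both partners at 5 CPM or more, 45.5% of head-to-head members were lower and 3.47% of pairs had no call, shares that were added after seeing the data. They were not set against all genes or all pairs. Fold changes then had r of -0.0026 and rho of 0.028 in head-to-head pairs, and r of -0.033, rho of -0.039 and a median difference of 0.89 in tail-to-tail pairs. With a pseudocount of 1 TPM, level r was 0.047 in lhp1ab and the median difference 1.57 in WT for head-to-head pairs. For tail-to-tail pairs r was 0.028 and the median difference 1.66 in lhp1ab, and the median difference was 1.66 in WT.

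With untested partners included, head-to-head levels had r of 0.344, rho of 0.295 and a median difference of 2.07 in lhp1ab, and 0.363, 0.324 and 1.96 in WT. For tail-to-tail pairs these were 0.136, 0.0975 and 2.28 in lhp1ab, and 0.141, 0.102 and 2.26 in WT. In all these cases the cause was not tested. Leaving out 1 library gave 37.4 to 40.1% of head-to-head members lower, against 35.8 to 37.7% of all tested genes. It also gave 14.3 to 19.4% of head-to-head pairs opposite, 9.15 to 12.2% with no call and 58.6 to 67.3% with a changed ratio. It gave a rho of 0.066 to 0.109 and a median difference of 0.595 to 0.690 for head-to-head fold changes, 0.949 to 0.983 for the tail-to-tail difference and 1.62 to 1.65 for the head-to-head level difference in WT.

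Same-numbered libraries of the genotypes did not deviate together (r of 0.0035, 0.093 and -0.12), so the replicate numbers were not taken to pair them. With a replicate block, 26.7% of head-to-head members were higher and 40.2% lower, against 36.2% and 37.7% of all tested genes. No other count moved over 1.5 times. Depth limits weakly expressed genes, and members with few counts could not be tested.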
